A study of Mus musculus with 9 samples.

Results

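Guanylate binding proteins (GBPs) are large GTPases that interferon γ (IFNγ) induces, and the mouse genes Gbp2 to Gbp11 were followed here through 3 states of bone marrow progenitors. The members were the rows of the deposited count table that carry 1 of the 10 names Gbp2, Gbp3, Gbp4, Gbp5, Gbp6, Gbp7, Gbp8, Gbp9, Gbp10 and Gbp11. Of these, 9 names were found among the 24186 genes of the table, each on 1 identifier, and Gbp11 was not found by name. All 9 genes found had enough counts to be tested, and so did 15098 genes in all. Without the IFNγ-treated libraries 7 of the 9 would have passed, since Gbp8 and Gbp10 passed through the treated libraries only.

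The data are poly(A) RNA counts from 9 libraries of mouse bone marrow stromal cells, 3 in each of 3 groups. Adipogenic progenitors treated with 10 ng/ml IFNγ for 3 days, osteogenic progenitors without IFNγ, and adipogenic progenitors without IFNγ are called IFNγ-treated, osteogenic and untreated below. All came from adult C57Bl/6 mice carrying the irtTA-GBD*-TAg transgene, which gives large T antigen when dexamethasone and doxycycline are present. Cells of all 3 groups were grown with both inducers, cloned, and kept without them for 3 days before sequencing, so each group is a conditionally immortalised culture and not freshly isolated tissue. The series design speaks of biological replicates, 3 of each kind. Whether a replicate stands for a clone, a culture or an animal is not known, so a p-value reflects no more than the variation among these libraries.

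GBPs belong to the dynamin superfamily. They assemble on the vacuoles of intracellular parasites and on the surface of bacteria in the cytosol, which breaks these compartments open and exposes their content to inflammasome sensors. Their induction runs from the receptor chains Ifngr1 and Ifngr2 through the kinases Jak1 and Jak2 to transcription factors that bind gamma-activated sites and interferon-stimulated response elements in DNA, of which Irf1 binds the response elements. Macrophages are the best studied source, and fibroblasts and other stromal cells also make GBPs on exposure to IFNγ.

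Libraries held 27440089 to 39251602 counts. Levels are given as CPM, each gene's counts set against the scaled total of its library. Where a library had 0 counts of a gene the upper limit was 0.0749 to 0.113 CPM, set at 3 counts and covering counting error only. Of 11 stromal markers Vim lay at 2196 to 4665 CPM in IFNγ-treated, 2869 to 3504 in osteogenic and 2254 to 4525 in untreated libraries. Thy1 was at or near 0 in all 9 libraries, Lepr lay at 0.0749 to 0.427 CPM, and Eng lay at 2.39 to 3.17 CPM in 8 libraries and at 60.2 in osteogenic number 5. The remaining stromal markers were at 7.33 CPM or more in every library. The bone-forming regulator Sp7 lay at 0.114 to 0.148 CPM in IFNγ-treated, 50.6 to 130 in osteogenic and 0.0845 to 0.313 in untreated libraries. The bone markers Runx2, Alpl, Col1a1 and Ibsp were also higher in every osteogenic library than in any other. Ibsp was uneven among osteogenic libraries, at 1.61 to 138 CPM. Bglap overlapped, at 0.177 to 0.284 CPM in IFNγ-treated, 0.828 to 3.57 in osteogenic and 0.200 to 0.939 in untreated libraries. The fat-cell regulator Pparg lay at 8.93 to 41.0 CPM in IFNγ-treated, 4.80 to 13.2 in osteogenic and 20.0 to 60.5 in untreated libraries. Lpl, a fat-cell lipase, lay at 11.5 to 112 CPM in IFNγ-treated, 2.15 to 3.57 in osteogenic and 12.3 to 291 in untreated libraries. The other fat-cell markers overlapped among all 3 groups, with Cebpa at 10.2 to 24.7 CPM in IFNγ-treated, 20.98 to 36.4 in osteogenic and 10.8 to 60.9 in untreated libraries, and Fabp4 at 22.2 to 171, 9.09 to 33.9 and 21.5 to 234 CPM in the same groups. Summed leukocyte markers (9 genes in the table) ranged over 12.6 to 20.1 CPM in IFNγ-treated, 9.46 to 12.2 in osteogenic and 12.7 to 30.7 in untreated libraries. Most of that sum was Cd68, at 3.48 to 18.6 CPM over the 9 libraries, and Cd14, at 4.05 to 16.4 CPM. The T cell gene Cd3g was at 0 in all 9, and the pan-leukocyte gene Ptprc had no more than 4 counts in any. Summed endothelial markers (6 genes) ranged over 22.2 to 54.4 CPM in IFNγ-treated, 1.67 to 2.63 in osteogenic and 9.22 to 17.8 in untreated libraries. Nearly all of that was Kdr, while Emcn was at 0 in all 9 libraries and Cdh5 at no more than 2 counts. The part of these other cells' genes in the Gbp results was not tested, and in bulk RNA fewer cells of a type and less RNA per cell cannot be told apart.

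The Gbp genes lie in 2 clusters. On chromosome 3 of build GRCm38.p6, Gbp5 (chr3:142496934-142522344), Gbp7 (chr3:142530336-142550151), Gbp3 (chr3:142560016-142573213), Gbp2b (chr3:142594816-142619179) and Gbp2 (chr3:142620663-142638008) follow each other. Chromosome 5 holds Gbp8 (chr5:105012513-105053609), Gbp9 (chr5:105076464-105110357), Gbp4 (chr5:105115767-105139586), Gbp10 (chr5:105215699-105239533), Gbp6 (chr5:105270702-105295871) and Gbp11 (chr5:105323026-105346476). The first 5 of that cluster are annotated as protein-coding and Gbp11 as a transcribed pseudogene. The build named in the submitters' processing notes is mm9, and no coordinate was converted.

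Sequence bears on which counts belong to which gene, because the reads were 75 bases long and family members share stretches of that length. Gbp10 was the most affected, with 67.2% of the 75-base windows of its GENCODE M21 transcripts also present in another Gbp gene, Gbp2b and Gbp11 counted, and 65.6% in Gbp6. Gbp6 had 42.7% of its windows in other Gbp genes, and 40.4% in Gbp10. Gbp8 shared 8.04%, Gbp9 3.61%, Gbp4 3.08%, Gbp3 2.06%, Gbp7 1.25%, Gbp2 0.955% and Gbp5 0% of their windows. All shared windows of Gbp2 were with Gbp2b, so it shared none with a member. The sources used here do not give the rule for reads that match several places, so the split of counts between Gbp6 and Gbp10 is uncertain and their sum is given as well.

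Identifiers add a second limit. Of the 9 members found, 6 carry an identifier with the same symbol in GENCODE M21. The row named Gbp5 (ENSMUSG00000040264) has an identifier that M21 gives to Gbp2b. The row named Gbp6 (ENSMUSG00000079362) has one that M21 gives to Gm43302, a gene model with 89.9% of its windows in Gbp6 and 60.2% in Gbp10. The identifier of the Gbp10 row (ENSMUSG00000054588) is not in M21. All 3 are called by the name in the deposited table.

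**Figure D1:**
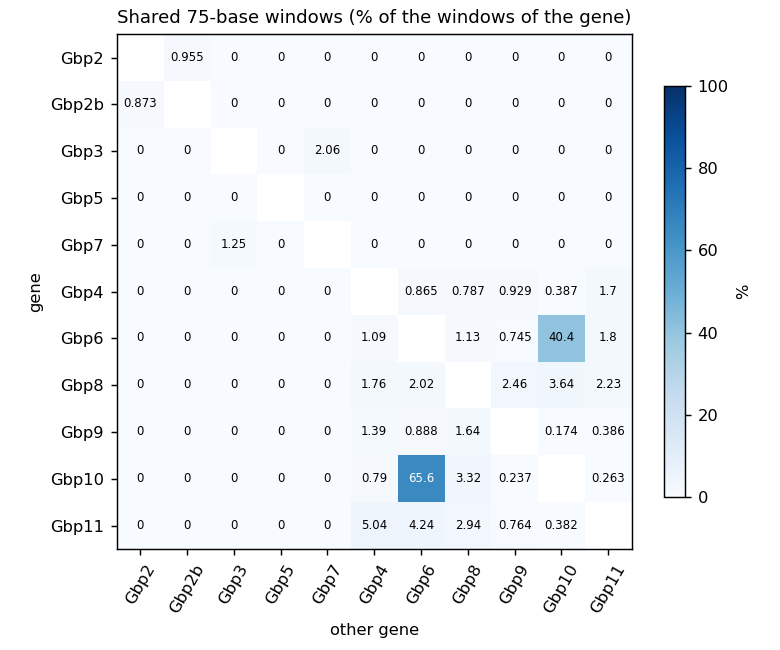
Share of the 75-base windows of each gene's GENCODE M21 transcripts (rows) that also occur in the transcripts of another Gbp gene (columns), in percent. The Gbp10 windows found in Gbp6 (65.6%) and the Gbp6 windows found in Gbp10 (40.4%) stand out, and no window of a chromosome 3 gene occurs in a chromosome 5 gene.

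Promoters are shown for the chromosome 3 cluster only, because the promoter set used here held none of the chromosome 5 members. Those members were therefore not searched for motifs. RefSeq (GRCm38.p6) gave 5 promoters for 4 members, Gbp5, Gbp7, Gbp3 and Gbp2, of which Gbp3 has 2. Printed are the 250 bases upstream of the start, on the plus strand, at chr3:142496684-142496933 for Gbp5, chr3:142530086-142530335 for Gbp7, chr3:142559794-142560043 for the upstream start of Gbp3, chr3:142594597-142594846 for Gbp2b and chr3:142620413-142620662 for Gbp2. Capitals mark the gamma-activated site TTCNNNGAA and the interferon-stimulated response element core GAAANNGAAA, each searched on both strands.
Gbp5: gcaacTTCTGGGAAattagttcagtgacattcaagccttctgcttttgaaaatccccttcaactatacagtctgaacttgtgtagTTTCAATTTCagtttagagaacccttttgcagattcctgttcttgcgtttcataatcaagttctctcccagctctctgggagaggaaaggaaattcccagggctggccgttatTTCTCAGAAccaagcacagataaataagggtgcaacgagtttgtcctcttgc
Gbp7: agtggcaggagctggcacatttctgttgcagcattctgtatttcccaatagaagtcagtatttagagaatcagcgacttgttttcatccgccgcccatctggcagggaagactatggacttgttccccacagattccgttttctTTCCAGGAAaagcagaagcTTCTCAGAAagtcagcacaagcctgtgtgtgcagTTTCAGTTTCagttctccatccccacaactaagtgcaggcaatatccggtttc
Gbp3: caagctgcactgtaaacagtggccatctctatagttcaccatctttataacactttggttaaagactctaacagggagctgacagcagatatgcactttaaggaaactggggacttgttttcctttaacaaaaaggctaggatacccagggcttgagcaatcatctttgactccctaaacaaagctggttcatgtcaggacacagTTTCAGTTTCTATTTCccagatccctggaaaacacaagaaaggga
Gbp2b: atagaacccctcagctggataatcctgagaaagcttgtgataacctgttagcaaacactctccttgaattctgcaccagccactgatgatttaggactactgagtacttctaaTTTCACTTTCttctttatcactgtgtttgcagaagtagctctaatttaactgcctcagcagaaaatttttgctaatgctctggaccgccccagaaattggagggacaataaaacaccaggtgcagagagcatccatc
Gbp2: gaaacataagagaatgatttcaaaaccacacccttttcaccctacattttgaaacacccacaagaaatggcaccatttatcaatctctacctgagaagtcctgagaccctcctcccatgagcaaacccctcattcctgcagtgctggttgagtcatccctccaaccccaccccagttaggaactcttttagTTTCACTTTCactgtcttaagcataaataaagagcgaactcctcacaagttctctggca

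The response element core was found in 4 of the 5 promoters of members, searched over 300 bases with 50 downstream of the start, and the gamma-activated site in 2 of the 5. Over all 32851 mouse promoters of that length, 3.44% held the core and 8.3% the site. Gbp5 held gamma-activated sites beginning at -245 and -52 from the start and a core at -165. Gbp7 held sites at -106 and -87 and a core at -53. Gbp3 held a pair of overlapping cores at -45 and -39 at its upstream start and neither motif at its downstream one. Gbp2 held a core at -59, and the neighbouring Gbp2b, which is no member, held one at -137. Distances are counted from the start used for each promoter. For Gbp3 and Gbp2b that start lies inside the gene position given above, so their printed stretches reach into it. Every core was on the minus strand and therefore reads as its reverse complement as printed. These are matches of letters, not binding sites.

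With IFNγ, all 9 members rose against untreated adipogenic progenitors. Every IFNγ-treated library lay above every untreated one for each of the 9 genes. Across all genes tested 2.01% rose and 0.245% fell, and 10.2% had all treated libraries above all untreated ones. Log2 fold changes ran from 4.57 for Gbp3 to 10.44 for Gbp8, with a median of 6.86 over the 9 members, against -0.02 over all genes tested. Adjusted p ran from 8.66e-06 to 0.00177 (quasi-likelihood test of edgeR, Benjamini-Hochberg over all genes tested). Since Gbp8 and Gbp10 entered the test through their treated libraries they had to differ, and the other 7 all rose as well. The family together took 0.534 to 0.773% of all counts in IFNγ-treated libraries, against 0.00673 to 0.0129% in untreated ones.

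**Figure D2:**
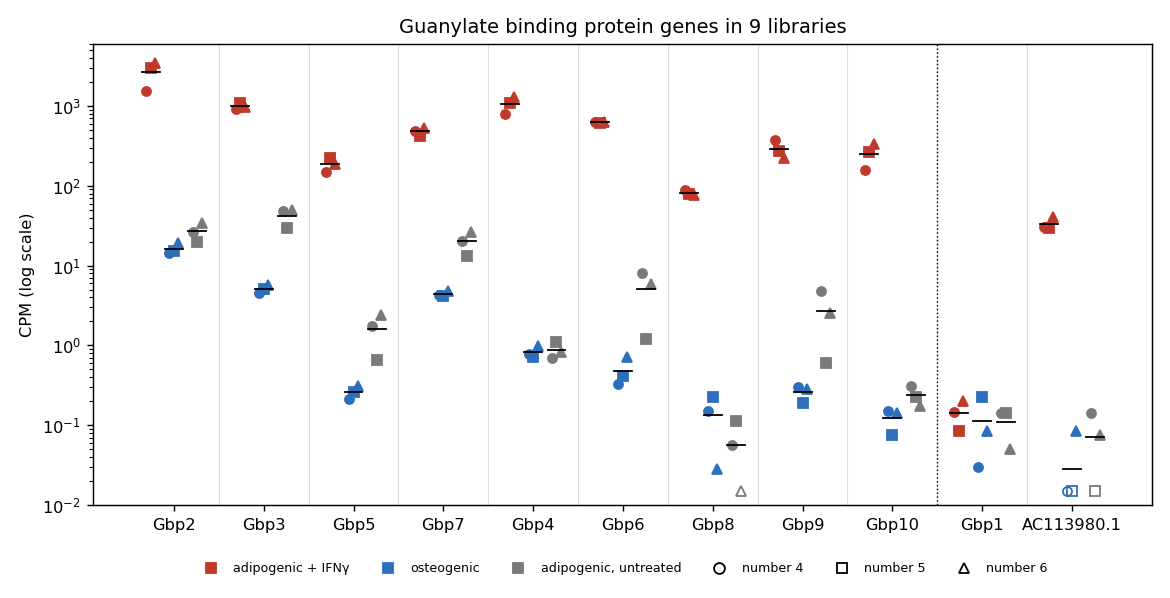
CPM (log scale) of the 9 members, and right of the dotted line of 2 rows outside the naming rule, in each of the 9 libraries, with group means as bars. Open symbols at the lower edge are libraries with 0 counts. All 9 members lie between 75.9 and 3479 CPM in IFNγ-treated libraries, and the osteogenic libraries lie below the untreated ones for 7 of them.

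Among the chromosome 3 genes Gbp2, a lipid-anchored GBP that coats the vacuole of Toxoplasma gondii, was the most abundant of the family after treatment. It had 1551, 3021 and 3479 CPM in IFNγ-treated libraries numbered 4, 5 and 6, 14.2, 15.5 and 19.3 CPM in osteogenic ones and 26.5, 19.8 and 34.7 CPM in untreated ones of the same numbers. The groups did not overlap, and treated number 4 stood below the other treated libraries. Its log2 fold change with IFNγ was 6.63 ± 0.41 (SE, n = 3 against 3 libraries), a 99.3-fold rise, with adjusted p = 0.00017.

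Gbp3 was the most abundant member in untreated cells per length and had the smallest response. Its level was 922, 1102 and 980 CPM in IFNγ-treated, 4.53, 5.12 and 5.73 in osteogenic and 48.2, 29.6 and 49.1 in untreated libraries. The 3 groups stood apart, and the treated libraries were close together. The log2 fold change with IFNγ was 4.57 ± 0.24, a 23.7-fold rise (adjusted p = 8.38e-05).

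Gbp7, which in mouse macrophages helps to bring the oxidase and autophagy machinery to bacterial vacuoles, followed Gbp3 closely. It stood at 492, 421 and 530 CPM in IFNγ-treated, 4.26, 4.21 and 4.86 in osteogenic and 20.6, 13.3 and 26.5 in untreated libraries. The groups again did not overlap. Its log2 fold change with IFNγ was 4.58 ± 0.27, 23.9-fold (adjusted p = 0.000106).

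Gbp5, a lipid-anchored GBP known for promoting inflammasome activation in macrophages, started from a lower level. Its row held 150.0, 225 and 187 CPM in IFNγ-treated, 0.212, 0.263 and 0.311 in osteogenic and 1.75, 0.655 and 2.40 in untreated libraries. Osteogenic libraries thus had 7 to 11 reads, and untreated ones 23 to 96. The log2 fold change with IFNγ was 6.86 ± 0.47, 116-fold (adjusted p = 0.000253).

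Of the chromosome 5 genes, Gbp4, which in mouse cells is known to restrain Irf7-dependent type I interferon production, was a trace transcript without IFNγ and reached counts near those of Gbp3 with it. It had 803, 1105 and 1292 CPM in IFNγ-treated, 0.786, 0.715 and 0.988 in osteogenic and 0.704, 1.11 and 0.823 in untreated libraries. Osteogenic and untreated libraries overlapped and both were far under the treated ones. The log2 fold change with IFNγ was 10.24 ± 0.33, 1209-fold, with the smallest adjusted p of the family, 8.66e-06.

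Gbp6 and Gbp9, both of which gather at the Toxoplasma gondii vacuole, behaved alike in the spread of their untreated libraries. Gbp6 had 639, 615 and 637 CPM in IFNγ-treated, 0.332, 0.414 and 0.706 in osteogenic and 8.05, 1.20 and 5.91 in untreated libraries. Gbp9 had 376, 271 and 225 CPM in IFNγ-treated, 0.302, 0.188 and 0.282 in osteogenic and 4.82, 0.598 and 2.57 in untreated libraries. In both, untreated number 5 was lowest, 6.74-fold under the highest untreated library for Gbp6 and 8.06-fold for Gbp9. Their log2 fold changes with IFNγ were 6.96 ± 0.68 for Gbp6 (adjusted p = 0.00153) and 6.77 ± 0.69 for Gbp9 (adjusted p = 0.00177).

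Gbp8 and Gbp10 were close to undetected without IFNγ. Gbp8 had 3007, 2794 and 2673 counts in IFNγ-treated libraries (88.9, 78.8 and 75.9 CPM), 5, 6 and 1 counts in osteogenic ones and 2, 4 and 0 counts in untreated ones. Its untreated values were at or near the floor, and the pooled ratio of treated to untreated was 1496 with a 95% counting interval of 687 to 4078. Gbp10 had 5397, 9440 and 11646 counts in IFNγ-treated libraries (160, 266 and 331 CPM), 5, 2 and 5 in osteogenic ones and 11, 8 and 7 in untreated ones, a pooled ratio to untreated of 1079 (736 to 1652). Fitted log2 fold changes with IFNγ were 10.44 ± 0.67 for Gbp8 (adjusted p = 0.000198) and 10.04 ± 0.41 for Gbp10 (adjusted p = 2.53e-05), and at so few counts the fitted size depends on the prior count of the model. Summed as if they were a single gene, Gbp6 and Gbp10 averaged 883 ± 84.6 CPM in IFNγ-treated and 5.29 ± 3.54 CPM in untreated libraries (SD, n = 3 each), a log2 fold change of 7.38 ± 0.66 (adjusted p = 0.00114).

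The clusters overlapped in their responses, which are set side by side as a description. Log2 fold changes with IFNγ were 4.57 to 6.86 for the 4 chromosome 3 members. On chromosome 5 they were 6.77 for Gbp9, 6.96 for Gbp6 and 10.24 for Gbp4. The values of 10.44 for Gbp8 and 10.04 for Gbp10 come from genes that entered the test through treated libraries only. Gbp10 is also split uncertainly from Gbp6. The 3 members above 10 CPM in untreated libraries, Gbp2, Gbp3 and Gbp7, all lie on chromosome 3.

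**Figure D3:**
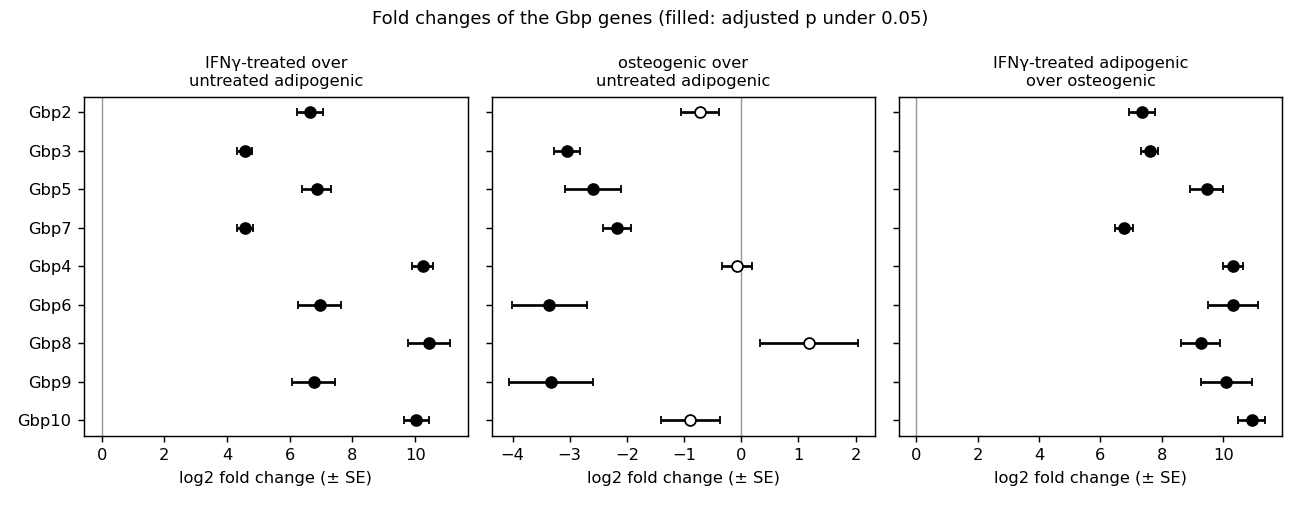
Log2 fold changes of the 9 members with standard errors in the 3 comparisons, filled where the adjusted p is under 0.05. All 9 are filled and above 0 in both comparisons of IFNγ-treated libraries, and 5 are filled and below 0 in osteogenic over untreated. Of the 9, Gbp8 and Gbp10 had to differ in the comparisons of IFNγ-treated libraries.

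Without any IFNγ, osteogenic progenitors had less of several Gbp transcripts than untreated adipogenic ones. Of the 9 members 5 fell and none rose, where 3.19% of all genes tested fell and 1.98% rose. The log2 fold changes of those that fell were -3.04 ± 0.23 for Gbp3 (adjusted p = 0.00102), -2.18 ± 0.25 for Gbp7 (0.00457), -2.60 ± 0.49 for Gbp5 (0.0262), -3.36 ± 0.66 for Gbp6 (0.0293) and -3.33 ± 0.73 for Gbp9 (0.0419). Gbp3 averaged 5.13 ± 0.60 CPM in osteogenic and 42.3 ± 11 CPM in untreated libraries (SD, n = 3 each), an 8.24-fold difference. Gbp7 averaged 4.44 ± 0.36 CPM in osteogenic and 20.1 ± 6.6 CPM in untreated libraries, a 4.53-fold difference. For 7 members, these 5 with Gbp2 and Gbp10, every osteogenic library was below every untreated one, against 15.9% of all genes tested.

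The remaining 4 members did not pass the test between osteogenic and untreated cells. Gbp2 averaged 16.3 ± 2.65 CPM in osteogenic and 27.01 ± 7.45 CPM in untreated libraries, a log2 fold change of -0.73 ± 0.33 (adjusted p = 0.227). Gbp4 averaged 0.830 ± 0.142 and 0.879 ± 0.209 CPM in those groups, -0.07 ± 0.27 (adjusted p = 0.898). Gbp8 and Gbp10 had 12 counts each over the 3 osteogenic libraries, and 6 and 26 over the 3 untreated ones, too few for a difference to be detectable at this depth (adjusted p = 0.442 and 0.332).

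The number of members called in this comparison changed with the processing. Leaving out osteogenic number 4, 5 or 6, or untreated number 4 or 6, left 2 members called, Gbp3 and Gbp7, and without untreated number 5 the count stayed at 5. With limma-voom, or a fit of the 6 libraries compared only, Gbp3 and Gbp7 were likewise the 2 called.

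Against osteogenic progenitors the IFNγ-treated adipogenic ones were higher for all 9 members, of which Gbp8 and Gbp10 again had to differ. Log2 fold changes of the other 7 ran from 6.76 for Gbp7 to 10.32 for Gbp6, with adjusted p of 5.72e-06 to 0.000232. Fitted values for Gbp8 and Gbp10 were 9.26 and 10.93. Of all genes tested 9.2% were higher and 7.52% lower in that comparison, and 19.7% had no overlap in that direction. The comparison joins 2 differences, the progenitor type and the treatment, and shares its libraries with both comparisons above. The order of the 3 states was IFNγ-treated, untreated, osteogenic for 8 members by mean, with no difference past the test between untreated and osteogenic for Gbp2, Gbp4 and Gbp10. In Gbp8, the ninth, the osteogenic mean of 0.135 CPM was above the untreated mean of 0.0567 CPM, both near the floor.

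The make-up of the family changed along with its total. Levels between genes were compared per length, as CPM per kilobase of exonic length in the deposited table. Summed over the 9 members the level was 1527, 2225 and 2427 CPM per kilobase in IFNγ-treated libraries numbered 4, 5 and 6, 8.30, 8.96 and 10.9 in osteogenic ones and 33.0, 20.4 and 36.6 in untreated ones. Gbp2 made up 50.4 ± 8.8% of that sum in IFNγ-treated, 69.1 ± 1.2% in osteogenic and 36.1 ± 3.6% in untreated libraries (SD, n = 3 each). Gbp3 made up 15.5 ± 3.1% in IFNγ-treated, 16.9 ± 0.70% in osteogenic and 43.8 ± 2.1% in untreated libraries, so it led the family in the untreated group only. Gbp7 made up 4.38 ± 1.26% in IFNγ-treated, 8.58 ± 0.62% in osteogenic and 12.0 ± 0.93% in untreated libraries. These 3 genes of chromosome 3 held most of the family level in every library.

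Chromosome 5 members took more of the family after IFNγ. Gbp4 made up 11.4 ± 0.42% of the sum in IFNγ-treated libraries, 1.95 ± 0.17% in osteogenic and 0.722 ± 0.415% in untreated ones. Gbp6 made up 7.40 ± 2.0% in IFNγ-treated, 1.17 ± 0.30% in osteogenic and 3.59 ± 2.15% in untreated libraries. Gbp10 made up 2.78 ± 0.37% in IFNγ-treated, 0.305 ± 0.114% in osteogenic and 0.196 ± 0.077% in untreated libraries, subject to the uncertain split with Gbp6. The share of Gbp4 in every treated library was above that in any untreated one. Gbp8 held 1.60 ± 0.56% in IFNγ-treated and 0.0935 ± 0.110% in untreated libraries. Gbp9 held 4.23 ± 2.25% in IFNγ-treated and 2.25 ± 1.63% in untreated libraries. The groups overlapped, although the treated share was above the untreated one in each number, at 6.78 against 4.02% in number 4, 3.35 against 0.808% in number 5 and 2.55 against 1.93% in number 6. The 3 treated libraries were not alike, since number 4 gave less of its sum to Gbp2 than the others. Without scaling by length Gbp4 held 15.9 ± 0.68% and Gbp3 15.3 ± 2.6% of the family's CPM in treated cells, with Gbp3 higher in number 4, both level in number 5 and Gbp4 higher in number 6.

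**Figure D4:**
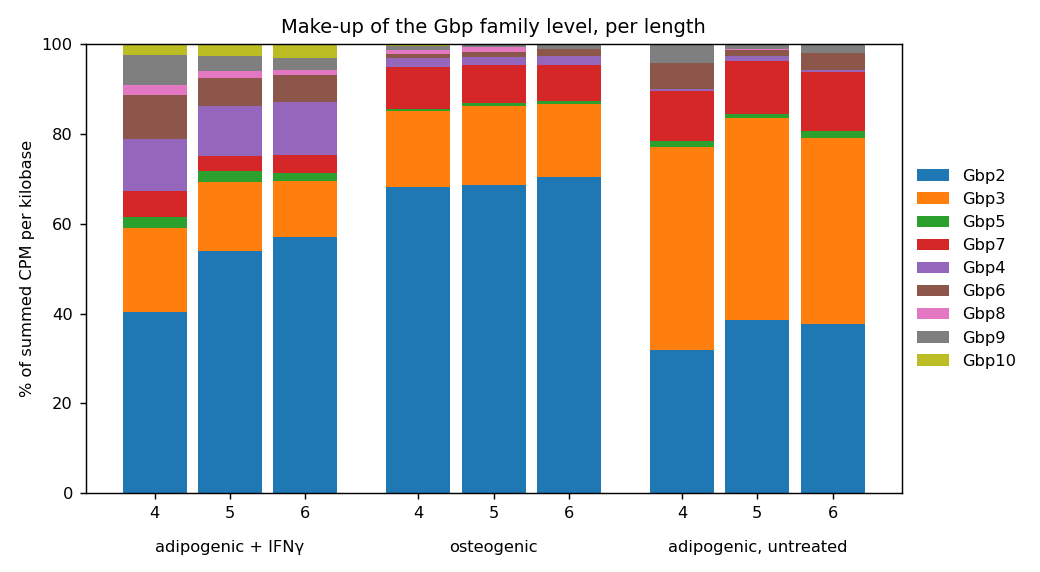
Share of each member in the summed CPM per kilobase of the 9 members, in percent, for each library numbered 4, 5 and 6 of the 3 groups. Gbp2 is the widest band in the IFNγ-treated (mean 50.4%) and osteogenic (69.1%) libraries, and Gbp3 in the untreated ones (43.8%).

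The libraries with the same number in IFNγ-treated and untreated cells varied together across genes, which allows the response to be read per number, as the log2 ratio of CPM + 0.5. Number 5 gave the largest ratio for 6 members, Gbp2, Gbp3, Gbp5, Gbp6, Gbp7 and Gbp9. These are the same 6 that were lowest in untreated number 5. Gbp6 had ratios of 6.22, 8.504 and 6.64 for numbers 4, 5 and 6, and Gbp9 had 6.15, 7.95 and 6.20. In treated libraries Gbp6 differed little, with a coefficient of variation of 2.13% against 69.4% in untreated ones, so the spread of its ratio lay in the untreated level. For Gbp9 the same coefficients were 26.7% in treated and 79.3% in untreated libraries. Gbp2 and Gbp10 went the other way and varied more in treated libraries, 37.5% against 27.6% for Gbp2 and 34.3% against 28.7% for Gbp10, with treated number 4 lowest in both. The ratio of Gbp8 ranged over 0.31 only, although the added 0.5 CPM dominates its untreated values.

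**Figure D5:**
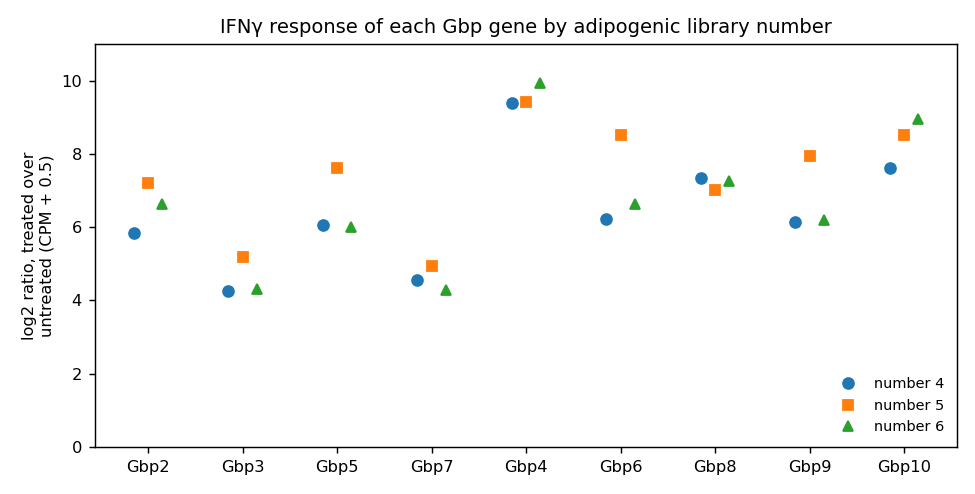
Log2 ratio of IFNγ-treated over untreated CPM (each + 0.5) for each member and each library number. Number 5 lies highest for Gbp2, Gbp3, Gbp5, Gbp6, Gbp7 and Gbp9, by the most for Gbp6 (8.504 against 6.22 and 6.64).

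A pair of further rows bears on the family although the naming rule does not take them. The row AC113980.1 carries the identifier ENSMUSG00000092021, which GENCODE M21 gives to Gbp11. It had 1032, 1041 and 1433 counts in IFNγ-treated, 0, 0 and 3 in osteogenic and 5, 0 and 3 in untreated libraries. Like Gbp8 and Gbp10 it entered the test through its treated libraries only and had to differ, and its fitted size depends on the prior count. Its log2 fold change over untreated was 8.79 ± 0.86 (adjusted p = 0.00149), with a pooled ratio of 464 (95% counting interval 235 to 1076). Gbp11 shares 10.3% of its windows with the members. The row named Gbp1, whose length of 2823 bases is that of a Gbp2b transcript, stayed at 5, 3 and 7 counts in IFNγ-treated, 1, 6 and 3 in osteogenic and 5, 5 and 2 in untreated libraries. It did not pass the filter on low counts, and its pooled ratio of treated to untreated was 1.32 (0.579 to 3.10). Gbp2b lies between Gbp3 and Gbp2 on chromosome 3, which rose 23.7-fold and 99.3-fold. Only length ties the Gbp1 row to Gbp2b, and the identifier of that row has no symbol in M21. M21 gives the Gbp2b symbol to the identifier of the row named Gbp5, so which row holds Gbp2b is uncertain.

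Genes that carry the IFNγ signal towards Gbp promoters were read from the same fit. Of 17 tested, 11 rose and 1 fell with IFNγ, and the rises numbered 9 to 11 without 1 library. Among the 11, Batf2 and Irf8 entered the test through their treated libraries only and had to differ. To set beside the counts of this and the following lists, 2.01% of all genes tested rose and 0.245% fell with IFNγ. These are 304 and 37 genes in the main fit. Calls given below from other fits stand beside larger numbers over all genes. The library number as a block over the 6 libraries compared gave 1266 rises and 1180 falls. As a block over all 9 libraries it gave 387 and 87. DESeq2 gave 750 and 318, and limma-voom 357 and 42. In osteogenic against untreated cells 1.98% of all genes tested rose and 3.19% fell. In parentheses after the means stand the log2 fold change and its adjusted p. Irf1, which binds response elements, averaged 790 ± 137 CPM in IFNγ-treated and 53.6 ± 9.73 CPM in untreated libraries (log2 fold change 3.88, adjusted p = 9.29e-05). Stat2, a transcription factor of interferon signalling, averaged 766 ± 76.2 CPM in IFNγ-treated and 150 ± 29.5 CPM in untreated libraries (log2 fold change 2.36, adjusted p = 0.00045). Batf2, a transcription factor that pairs with Irf1 in macrophages, was close to absent without IFNγ, with 158 ± 44.3 CPM in IFNγ-treated and 0.354 ± 0.216 CPM in untreated libraries (log2 fold change 8.79, adjusted p = 9.09e-05). AI451557, since renamed Nlrc5, is the activator of MHC class I genes and averaged 620 ± 165 CPM in IFNγ-treated and 61.8 ± 13.3 CPM in untreated libraries (log2 fold change 3.33, adjusted p = 0.00045).

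Irf9 averaged 124 ± 27.1 CPM in IFNγ-treated and 83.7 ± 12.1 CPM in untreated libraries and was called only with the library number as a block (adjusted p = 0.0244 over the 6 libraries compared and 0.0481 over all 9, against 0.209 without it).

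The receptor chains did not rise. Ifngr2 fell to 64.5 ± 16.9 CPM in IFNγ-treated libraries, against 128 ± 19.4 CPM in untreated ones (log2 fold change -0.99, adjusted p = 0.0398). That call was lost on leaving out treated number 4 or 6 or untreated number 4, 5 or 6, at adjusted p of 0.0954 to 0.188. Ifngr1 averaged 61.1 ± 14.2 CPM in IFNγ-treated and 90.4 ± 42.2 CPM in untreated libraries (log2 fold change -0.56, adjusted p = 0.499).

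In osteogenic against untreated cells 4 of the 17 signalling genes fell, among them Stat2, Irf9 and AI451557. Stat2 averaged 29.2 ± 3.04 CPM in osteogenic and 150 ± 29.5 CPM in untreated libraries (log2 fold change -2.36, adjusted p = 0.00104). Irf9 averaged 19.9 ± 2.88 CPM in osteogenic and 83.7 ± 12.1 CPM in untreated libraries (log2 fold change -2.07, adjusted p = 0.00223). Socs3, a feedback inhibitor, rose (log2 fold change 1.49, adjusted p = 0.0467), a call that leaving out any 1 of the 6 libraries removed. Irf1 did not pass the test there, at 41.4 CPM in osteogenic and 53.6 CPM in untreated libraries (log2 fold change -0.37, adjusted p = 0.28), and neither did Ifngr1 (adjusted p = 0.302) or Ifngr2 (adjusted p = 0.506). The ligand Ifnb1 had 1, 7 and 5 counts in IFNγ-treated, 1, 0 and 0 in osteogenic and 5, 1 and 6 in untreated libraries.

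The immunity-related GTPases, a further family that IFNγ induces and that acts on the same vacuoles, rose with IFNγ in 7 of 11 tested and fell in none. Without 1 library the rises numbered 5 to 9. Igtp averaged 1363 ± 427 CPM in IFNγ-treated and 49.5 ± 11.8 CPM in untreated libraries (log2 fold change 4.78, adjusted p = 0.000198). Irgm2 averaged 596 ± 97.8 CPM in IFNγ-treated and 53.3 ± 16.1 CPM in untreated libraries (log2 fold change 3.48, adjusted p = 0.000468). Gm12250, also called Irgb10, works with GBPs in the lysis of bacteria and showed the strongest change of those named, with 380 ± 119 CPM in IFNγ-treated and 2.45 ± 0.523 CPM in untreated libraries (log2 fold change 7.27, adjusted p = 5.52e-05). Osteogenic against untreated cells had 4 of the 11 lower, Irgm2, Igtp, Iigp1 and Gm12250, and 2 to 4 without 1 library.

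Of 6 dynamin-like and GBP-like relatives tested, Mx1 and Mx2, antiviral dynamin-like GTPases, rose with IFNγ. Mx1 averaged 21.2 ± 10.4 CPM in IFNγ-treated and 1.40 ± 0.901 CPM in untreated libraries (log2 fold change 3.91, adjusted p = 0.0114). Mx2 averaged 51.3 ± 19.3 CPM in IFNγ-treated and 11.8 ± 3.45 CPM in untreated libraries (log2 fold change 2.12, adjusted p = 0.0148). Both calls were lost in a fit of the 6 libraries compared only, at adjusted p of 0.0614 for Mx1 and 0.0649 for Mx2, and 1 to 2 of them held without 1 library. Gvin1, a very large interferon-inducible GTPase, averaged 13.8 ± 2.67 CPM in IFNγ-treated and 1.28 ± 1.07 CPM in untreated libraries (log2 fold change 3.43, adjusted p = 0.106). It was called with DESeq2 (adjusted p = 0.0011), limma-voom (adjusted p = 0.0173) and the library number as a block over the 6 libraries (adjusted p = 0.018). That block also called Atl1 lower (log2 fold change -0.64, adjusted p = 0.0481, against 0.295 without it). Mx1 and Mx2 fell in osteogenic against untreated libraries, Mx1 at a log2 fold change of -4.64 (adjusted p = 0.0147) and Mx2 at -4.68 (adjusted p = 0.00172). The Mx1 call was lost with limma-voom (adjusted p = 0.112) and on leaving out osteogenic number 4, 5 or 6 (adjusted p = 0.059 to 0.074).

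Of 6 inflammasome genes tested, through which GBPs act in infected cells, none passed with IFNγ in the main edgeR fit, which has no block. In that fit 2 were at an unadjusted p under 0.05, and 2 passed in DESeq2 and 2 in limma-voom. Casp1 averaged 109 ± 48.2 CPM in IFNγ-treated and 16.3 ± 14.2 CPM in untreated libraries (log2 fold change 2.74, adjusted p = 0.169). Casp4, the mouse caspase that senses bacterial lipopolysaccharide, averaged 72.2 ± 16.1 CPM in IFNγ-treated and 14.8 ± 13.0 CPM in untreated libraries (log2 fold change 2.29, adjusted p = 0.121). With the library number as a block over the 6 libraries compared, Casp1 (adjusted p = 0.0096), Casp4 (adjusted p = 0.0323) and Gsdmd (adjusted p = 0.0385), the pore-forming protein they cleave, were called. Casp1 fell in osteogenic against untreated cells, to 0.967 ± 1.12 CPM in osteogenic against 16.3 ± 14.2 CPM in untreated libraries (log2 fold change -4.13, adjusted p = 0.0458). Leaving out osteogenic number 4 or 6 or any untreated library removed that call, as did limma-voom, no filter and a fit of the 6 libraries compared, at adjusted p of 0.0564 to 0.148.

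Of 6 genes for the lipid anchor, which Gbp2 and Gbp5 carry, none passed with IFNγ in the main edgeR fit. There 1 was at an unadjusted p under 0.05. Fnta, a subunit of the prenyltransferases, averaged 50.7 ± 14.2 CPM in IFNγ-treated and 71.4 ± 11.8 CPM in untreated libraries (log2 fold change -0.49, adjusted p = 0.33, and 0.0318 with the block over 6 libraries). Of 17 autophagy conjugation and ubiquitin genes, several of which help to place GBPs on vacuoles, Trim21 rose and none fell. With the block over 6 libraries Lgals8 was also called higher (log2 fold change 0.50, adjusted p = 0.046) and Map1lc3a lower (log2 fold change -0.47, adjusted p = 0.0181). Trim21, a ubiquitin ligase, averaged 99.7 ± 22.9 CPM in IFNγ-treated and 17.4 ± 1.93 CPM in untreated libraries (log2 fold change 2.52, adjusted p = 0.00079). Between osteogenic and untreated cells none of the anchor genes passed, also at an unadjusted p under 0.05. Of those 17 autophagy and ubiquitin genes 5 fell, Atg7, Atg12, Map1lc3b, Trim21 and Lgals8, against 3.19% of all genes tested. Without 1 library 1 to 4 of the 17 fell. Trim21 changed most among the 5 (log2 fold change -1.60, adjusted p = 0.00797). The Lgals8 call was lost on leaving out any library of the comparison, at adjusted p of 0.101 to 0.162. It was also lost with the other scalings, no filter and limma-voom, at adjusted p of 0.0502 to 0.0692.

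Set against osteogenic cells, IFNγ-treated ones were higher in 12 of the 17 signalling genes and lower in 1, and higher in 10 of 11 immunity-related GTPases. Among the 12, Batf2 and Irf8 again had to differ. The 1 lower was Ifngr2. Leaving out treated number 4 or 6 or any osteogenic library removed that call, at adjusted p of 0.0767 to 0.12. IFNγ-treated cells were higher in 3 of 6 relatives, Mx1, Mx2 and Gvin1, and lower in Atl1. The Atl1 call was lost on leaving out any treated library or osteogenic number 4 or 5, at adjusted p of 0.0688 to 0.103. A fit of the 6 libraries compared also removed it (adjusted p = 0.058). The treated cells were higher in 3 of 6 inflammasome genes, Casp1, Casp4 and Ninj1, and in 5 of 17 autophagy and ubiquitin genes, with Map1lc3a lower. Leaving out treated number 5 or 6 or any osteogenic library removed the Map1lc3a call, at adjusted p of 0.059 to 0.122. None of the 6 lipid anchor genes passed in edgeR there, and 1 did at an unadjusted p under 0.05. Over all genes tested 9.2% were higher and 7.52% lower in that comparison.

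The genes whose pattern over the 9 libraries was most like the median of the members were C4b, Batf2, Ciita, Serpina3f and Serping1, in that order. Likeness was the root mean square difference of log2 (CPM + 0.5), centred on each gene's mean, and was 0.37 for C4b, 0.51 for Batf2, 0.63 for Ciita, 0.67 for Serpina3f and 0.67 for Serping1, against a median of 3.54 over 9400 candidate genes. Members themselves lay at 0.14 (Gbp5) to 1.23 (Gbp4) from their median. C4b, a complement component, averaged 186 CPM in IFNγ-treated, 0.375 in osteogenic and 1.39 in untreated libraries. Ciita, the activator of MHC class II genes, averaged 138, 0.133 and 0.205 CPM in the same groups.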

How the data were processed

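The authors deposited raw counts of reads for each Ensembl gene in each library, as whole numbers without normalization. Libraries were made with a directional poly(A) kit and read as 75-base single reads, per the labels' protocols. CASAVA 1.8.0, bedtools 2.11 and build mm9 were used, per the submitters' processing notes. The sources used here give neither the aligner nor the counting rule and its strand setting.

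The analysis used edgeR 4.0.16 in R 4.3.3. Genes kept by filterByExpr were scaled with TMM and fitted with a robust quasi-likelihood model over all 9 libraries with a term for the group. Tests were two-sided, with Benjamini-Hochberg adjustment and a threshold of 0.05. An exact permutation test of 3 against 3 cannot go below 0.1. CPM use the TMM-scaled libraries, and a standard error is the log2 fold change over the square root of F. Windows of 75 bases were compared between GENCODE M21 transcripts. The fit was tested on simulated data. Alternatives were DESeq2 1.42.0, limma 3.58.1, other scalings and filters, the library number as a block, and leaving out each library.

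Named are all members, up to 4 genes of each of 6 lists with the smallest adjusted p with IFNγ and at least 1 CPM in the higher group, Ifngr1, Ifngr2, Irf1 and the 5 genes of nearest pattern among those reaching 10 CPM in some group, without predicted genes. A result that this rule takes is not reported here. AC113980.1, Irf8, Irf9, Socs3, Iigp1, Ifnb1, Ninj1, Atg7, Atg12 and Map1lc3b were added after their values were seen. Members and lists were chosen with earlier results of these data known.

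Numbers 4, 5 and 6 of the titles were checked as a pairing. Deviations from group means correlated across genes at 0.778, 0.769 and 0.779 between treated and untreated libraries of the same number, so the numbers pair these. The main fit does not use this pairing. With the number as a block over those 6 libraries 1266 genes rose and 1180 fell, against 304 and 37 in the main fit. For osteogenic and untreated libraries the values were -0.0269, -0.0546 and -0.0541, and the numbers do not pair them.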

Additional observations from a re-analysis of the deposited data

How the results depend on the processing

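All 9 members stayed higher and past the threshold in both comparisons of IFNγ-treated libraries under every alternative run, with adjusted p of at most 0.0209 (Gbp9 against untreated). Gbp8 and Gbp10, which entered the test through treated libraries only, had to differ in both. In osteogenic against untreated, 5 members fell in the main analysis. The count was 2 with limma-voom, 2 with only the 6 libraries compared, 4 with no filter and 0 with the replicate block over those 6 libraries, where Gbp3 had an adjusted p of 0.0562 and Gbp7 of 0.0768, and it ranged over 2 to 5 without 1 library. The same block removed the calls there on Stat2 (adjusted p = 0.0604), AI451557 (0.0562), Mx1 (0.0931), Casp1 (0.184), Trim21 (0.0768), Lgals8 (0.127), Igtp (0.0891), Irgm2 (0.0891) and Gm12250 (0.0968). The numbers do not pair osteogenic and untreated libraries, so in this comparison the block fits a pairing that the check did not find. The sign of Gbp4, not called there, turned without osteogenic number 5 or untreated number 5, in a range of -0.22 to 0.12 without 1 library.

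Counts over all genes moved more. With IFNγ against untreated, 304 rose and 37 fell. With DESeq2 750 rose and 318 fell, with only the 6 libraries 169 and 9, and with the replicate block over those 6 1266 and 1180. The block over all 9 libraries gave 87 falls, and no filter 22. Leaving out 1 library gave 185 to 260 rises and 9 to 23 falls. In osteogenic against untreated, 299 rose and 481 fell. With DESeq2 944 rose and 1282 fell, and with the block over 6 libraries 9 and 14. The block over all 9 gave 527 rises, only the 6 libraries gave 197, and leaving out 1 library gave 54 to 132 rises and 105 to 343 falls. For IFNγ-treated against osteogenic the main counts were 1389 and 1136. DESeq2 gave 1754 falls, the block over 6 libraries 705 rises and 552 falls, and leaving out 1 library 747 to 1186 and 543 to 842. The cause was not tested.

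Signs of log2 fold changes turned for some other genes, none of them called. In osteogenic against untreated these were Fnta (0.018 with upper-quartile scaling, 0.0092 with limma-voom, 0.023 with the block over 9 libraries, 0.0047 over 6, and -0.089 to 0.14 without 1 library) and Irf8 (0.20 with limma-voom). Leaving out 1 library there gave -0.33 to 0.40 for Gm12185, -0.25 to 0.062 for Zmpste24, -0.17 to 0.35 for Il18 and -0.36 to 0.00068 for Icmt, and with IFNγ against untreated -0.27 to 0.046 for Fntb. For IFNγ-treated against osteogenic, Ifngr1 gave -0.038 with upper-quartile scaling, -0.024 with the block over 9 and -0.086 to 0.23 without 1 library. Icmt gave 0.0099 with no filter and -0.092 to 0.088 without 1 library, and Zmpste24 -0.23 to 0.035. Of the members' 27 length-scaled shares, 15 moved by over 1 SD without length scaling. Depth limits Gbp8 and Gbp10 outside treated cells.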
